A study of Mesocricetus auratus with 38 samples.

Results

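The autophagy machinery is described here through 38 genes of hamster liver, out of 14631 gene symbols in the expression tables. They were chosen by symbol alone: the Atg genes, the Ulk kinases, Wipi1 and Wipi2, the LC3 and GABARAP genes, and a short list of regulators and receptors (Becn1, Pik3c3, Pik3r4, Uvrag, Ambra1, Vmp1, Sqstm1, Optn, Bnip3l, Tfeb and Tfe3). All 38 passed the filter on low counts, as did 9099 symbols in all. Atg4a, Nbr1, Rb1cc1, Tax1bp1 and Bnip3 belong to the same rule, but none of the 14631 symbols matched them, so they were not analysed here.

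Livers of male Golden Syrian hamsters, labelled as 22 weeks old, were sequenced in 38 libraries. Control animals (labelled Chow diet, 9 libraries) were fed for 12 weeks on chow in which fat supplied 11% of the calories. In the HFD group (10 libraries) fat supplied 23% and cholesterol was added, over the same 12 weeks. Animals of Dose I (labelled HFD + MI_D1, 9 libraries) and Dose II (labelled HFD + MI_D2, 10 libraries) had the HFD throughout and, for the last 4 weeks, combined metabolic activators (CMA), a mixture of L-carnitine, N-acetylcysteine, nicotinamide riboside and betaine. The amounts of L-carnitine, N-acetylcysteine and nicotinamide riboside were 200 mg/kg apiece in Dose I and 400 mg/kg apiece in Dose II, with betaine at 400 mg/kg and 800 mg/kg. Livers were taken after a daytime fast of some hours, a state shared by all groups in which autophagy is known to be active. The diets differ in cholesterol as well as in fat, so the effects of these components cannot be told apart.

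Autophagy carries parts of a cell to the lysosome inside a double membrane, the autophagosome. A kinase complex around ULK1 starts the process when nutrients are scarce, a lipid kinase complex around Beclin 1 marks the membrane, ATG9 and ATG2 proteins supply it with lipid, and conjugation enzymes attach proteins of the Atg8 family (LC3 and GABARAP) to it. Receptors such as p62 then tie the cargo to the Atg8 proteins, and in the liver that cargo includes mitochondria, endoplasmic reticulum and lipid droplets.

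Total estimated counts ran from 4.08e+06 to 1.04e+07 per library. Control library C105 (libraries carry the first letters of their group and their label number) stood apart from the other controls (Pearson's r of 0.904 with the mean of its group, against 0.977 to 0.988 for the other 37 libraries) and was left out of the values below unless it is named, since the study also dropped 1 control after its principal component analysis. Its level lay above the other 8 controls for 15 of the 38 genes, below them for 13 and among them for 10. Markers of hepatocytes, led by Alb, summed to between 205873 and 246212 CPM (counts relative to the library total, scaled by TMM) in the controls and between 121689 and 195997 CPM in the HFD-fed groups, and none of the 8 was at 0. Each library was taken as 1 animal. No label names one, but the study describes its principal component plot as showing 37 hamsters, as many as the libraries kept here. If libraries shared an animal, the p-values would measure technical spread.

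The levels of the 38 transcripts spanned more than the changes between groups did. On the TPM scale, which corrects for transcript length and library total, the mean over 37 libraries ran from 1.79 for Atg9b to 566 for Gabarap. Gabarap alone gave 30.6% of the summed TPM of the 38 genes, and Sqstm1, which encodes the receptor p62, gave 18.5% at a mean of 343 TPM. Gabarapl1 followed at 179 TPM, Bnip3l, a receptor for mitochondria, at 84.6 TPM, Gabarapl2 at 76.5 TPM, Map1lc3b at 75.4 TPM and Map1lc3a at 68.2 TPM. The value of Gabarap rests on a short transcript (relative length 0.131 where the median gene is 1), and its symbol is the 1 of the 38 not matched among RefSeq names. In CPM, which does not correct for length, it lay between 119.2 and 200.1 over the 37 livers, against 505 to 1124 for Sqstm1, 189 to 485 for Gabarapl1 and 170 to 264 for Bnip3l. By TPM, the 5 Atg8 genes, which encode the proteins that coat the membrane, and the receptors p62 and Bnip3l filled the 7 highest places.

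Within the other roles, the highest levels were those of Atg101 in the kinase complex (59.1 TPM), Atg3, the conjugating enzyme for Atg8 proteins (38.2 TPM), Vmp1, a membrane protein of the endoplasmic reticulum (33.6 TPM), Becn1, which encodes Beclin 1 (28.8 TPM), and Atg4d, a protease that trims Atg8 proteins (18.6 TPM). Tfeb, the transcription factor known as a regulator of lysosomal and autophagy genes, had a mean of 3.05 TPM, and the kinase gene Ulk2 had 3.07 TPM. Becn1 varied least between livers of a group, with an SD of 0.12 on the log2 CPM scale, and Tfeb varied most, with an SD of 0.49, followed by Atg2b with 0.43.

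**Figure D1:**
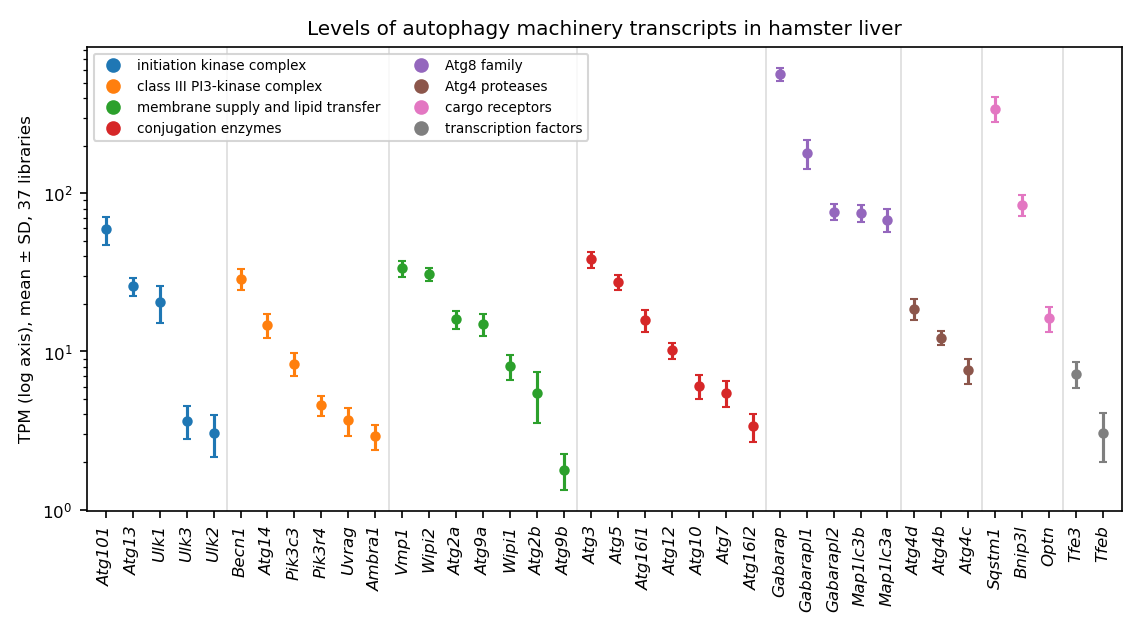
Mean TPM of each of the 38 genes over 37 libraries (log axis, bars are the SD over libraries), grouped and coloured by role. Gabarap at 566 TPM and Sqstm1 at 343 TPM stand highest, and Atg9b at 1.79 TPM stands lowest.

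The first question was what the HFD did to these genes. Of the 38, 7 changed between HFD and control, 4 of them higher (Atg101, Gabarapl1, Map1lc3b and Atg4c) and 3 lower (Ulk2, Atg2b and Pik3c3), at an adjusted p under 0.1 in the quasi-likelihood test of edgeR, adjusted by Benjamini-Hochberg over all 9099 genes. That is 18.4% of the machinery, against 36.2% of all tested genes (18.1% higher and 18.1% lower). The median log2 fold change was 0.03, beside 0.01 for all genes, and the median size of the change was 0.11, beside 0.22 for all genes. For 31 of the 38 genes, the 95% interval of the log2 fold change lay inside a bound of 0.5 in either direction. With control C105 kept in, 5 of the 38 genes changed (3 higher and 2 lower), beside 15.6% of all genes.

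In the initiation complex, Atg101 rose and Ulk2 fell. Atg101, a subunit that steadies ATG13, had a lowest, median and highest level of 36.6, 46.3 and 54.4 CPM in the controls, 60.8, 67.3 and 72 CPM in HFD, 53.4, 74.0 and 92.6 CPM in Dose I and 59.7, 72.8 and 99.1 CPM in Dose II. Every HFD liver was above every one of the 8 controls, which held for no other member and for 1.8% of all genes in either direction. Atg101 was higher in HFD than in control by 0.57 on the log2 scale (SE 0.09, edgeR adjusted p = 3.42e-05). Control C105 stood at 174 CPM, above every other liver, and with it kept in the log2 fold change was 0.18 (edgeR adjusted p = 0.557), so the call rests on leaving that library out.

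Ulk2, a kinase related to ULK1, had a lowest, median and highest level of 8.86, 13.9 and 17.2 CPM in the controls, 6.90, 8.66 and 13.4 CPM in HFD, 7.50, 8.89 and 13.1 CPM in Dose I and 5.76, 9.37 and 12.6 CPM in Dose II. The groups overlapped, with the medians of all HFD-fed groups at the bottom of the control range. Ulk2 fell by 0.51 on the log2 scale in HFD (SE 0.14, edgeR adjusted p = 0.00805), and by 0.39 with control C105 (3.22 CPM) kept in, which did not pass (edgeR adjusted p = 0.148). The other genes counted under this role, Ulk1, Ulk3 and Atg13, had log2 fold changes of -0.23, 0.05 and -0.11 and did not pass.

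In the lipid kinase complex, 1 of 6 genes changed. Pik3c3, which encodes the catalytic subunit VPS34, had a lowest, median and highest level of 36.3, 41.9 and 51.7 CPM in the controls, 25.5, 36.5 and 40.2 CPM in HFD, 29.1, 32.1 and 36.2 CPM in Dose I and 30.5, 35.3 and 39.99 CPM in Dose II. All 10 HFD livers were below the control median, and 4 of them were below every control. Pik3c3 fell by 0.29 on the log2 scale (SE 0.08, edgeR adjusted p = 0.00454). Becn1, the most abundant member of the complex per length, had medians of 41.2 CPM in control and 42.8 CPM in HFD and a log2 fold change of 0.13 (SE 0.06, edgeR adjusted p = 0.122). Atg14, Uvrag, Ambra1 and Pik3r4 had log2 fold changes between -0.13 and 0.11 and did not pass.

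Among the 7 genes for membrane supply, Atg2b changed. It encodes a protein that moves lipid into the growing membrane, and its lowest, median and highest levels were 18.0, 27.4 and 36.2 CPM in the controls, 10.1, 17.2 and 30.1 CPM in HFD, 11.6, 20.3 and 26 CPM in Dose I and 11.3, 16.1 and 30.7 CPM in Dose II. The groups overlapped over most of the control range. Atg2b fell by 0.62 on the log2 scale (SE 0.19, edgeR adjusted p = 0.0113), the largest fall of the 38 genes. Its paralogue Atg2a had a log2 fold change of 0.14 (SE 0.09, edgeR adjusted p = 0.245), and Vmp1, Wipi1, Wipi2, Atg9a and Atg9b lay between -0.05 and 0.09.

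None of the 7 conjugation enzyme genes passed in edgeR, in DESeq2 or in the other settings run for HFD vs. control. Their log2 fold changes ran from -0.09 for Atg16l1, part of the complex that places Atg8 proteins on the membrane, to 0.22 for its relative Atg16l2 (SE 0.14). Atg5 and Atg7, without which this conjugation is known to stop, had log2 fold changes of -0.01 (95% interval -0.18 to 0.16) and -0.03 (95% interval -0.26 to 0.20).

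The Atg8 family held 2 of the 4 genes that rose, Gabarapl1 and Map1lc3b. Gabarapl1 had a lowest, median and highest level of 189, 233 and 344 CPM in the controls, 214, 318 and 465 CPM in HFD, 310, 349 and 405 CPM in Dose I and 317, 385 and 485 CPM in Dose II. Control C106, at 344 CPM, stood above the other 7 controls (189 to 246 CPM) and overlapped the HFD-fed groups. Gabarapl1 was higher in HFD by 0.44 on the log2 scale (SE 0.11, edgeR adjusted p = 0.00360).

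Map1lc3b, which encodes LC3B, the protein most used to follow autophagosomes, had a lowest, median and highest level of 108.4, 120.3 and 138.3 CPM in the controls, 131.7, 145 and 174 CPM in HFD, 124.98, 148 and 176 CPM in Dose I and 127.99, 144 and 170 CPM in Dose II. The top of the control range overlapped the bottom of each HFD-fed range. It was higher in HFD by 0.29 on the log2 scale (SE 0.07, edgeR adjusted p = 0.00208). Gabarap, Gabarapl2 and Map1lc3a had log2 fold changes of 0.05, 0.12 and 0.02 and did not pass.

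The make-up of the family is given as a description. On the TPM scale, Gabarapl1 made up 14.9% ± 1.96 of the summed Atg8 transcripts in control (SD, n = 8), 18.6% ± 2.04 in HFD (SD, n = 10), 19.5% ± 1.64 in Dose I (SD, n = 9) and 20.2% ± 2.33 in Dose II (SD, n = 10). Gabarap made up 62.4% ± 2.04 of it in control and 58.2% ± 2.31 in HFD, while its own mean level was 558 TPM and 559 TPM. The control and HFD ranges overlapped for both, at 12.9% to 19.1% against 16.4% to 23.2% for Gabarapl1, and these shares were not tested.

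Atg4c, a protease that cuts Atg8 proteins, changed among the 3 Atg4 genes. Its lowest, median and highest levels were 21.9, 27.0 and 31.7 CPM in the controls, 22.0, 31.7 and 44.1 CPM in HFD, 25.6, 32.1 and 39.8 CPM in Dose I and 26.7, 31.2 and 37.3 CPM in Dose II. The groups overlapped over much of their range, and the log2 fold change was 0.33 (SE 0.10, edgeR adjusted p = 0.0156). Of the receptors, Sqstm1 ranged from 627 to 792 CPM in control and from 623 to 1124 CPM in HFD, with a log2 fold change of 0.13 (SE 0.11, edgeR adjusted p = 0.399), and Bnip3l and Optn had 0.06 and -0.18. None of the 3 receptor genes and neither transcription factor gene passed.

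**Figure D2:**
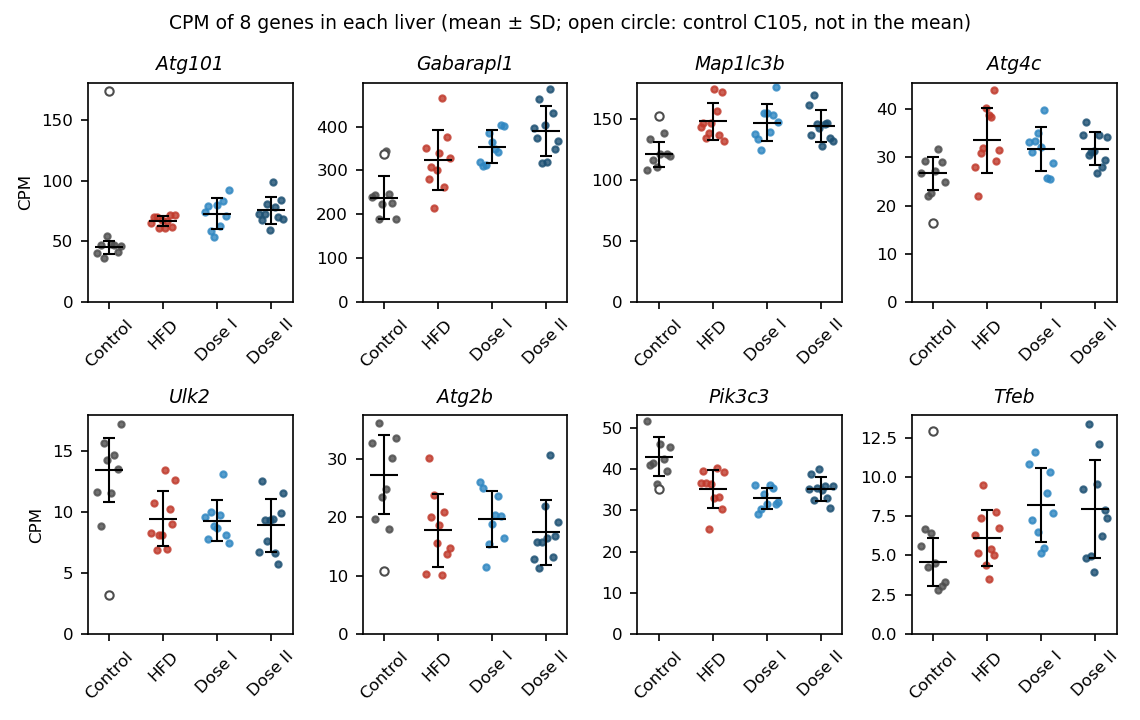
CPM of 8 genes in each liver by group, with the group mean and SD as bars and control C105 as an open circle outside the mean. Atg101 shows 8 controls at 36.6 to 54.4 CPM below all HFD livers at 60.8 to 72 CPM, with control C105 at 174 CPM, whereas the other genes overlap between control and HFD.

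The second question was whether CMA altered these genes in animals kept on the HFD. No member passed in Dose I vs. HFD in edgeR (0.187% of all genes did), 1 had an unadjusted p under 0.05 (Tfeb; 9.28% of all genes), and the smallest adjusted p was 0.535. DESeq2 also called none of the 29 members to which it gave an adjusted p. The log2 fold changes ran from -0.15 to 0.42, and for 35 of the 38 genes the 95% interval lay inside a bound of 0.5 in either direction.

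At Dose II, again no member passed in edgeR, whereas 5.63% of all genes did, and DESeq2 called none of the 38. An unadjusted p under 0.05 was reached by 6 members, beside 18.6% of all genes. Of these, 4 had higher values at Dose II than in HFD, with log2 fold changes of 0.27 for Gabarapl1 (SE 0.11, edgeR adjusted p = 0.141, the smallest of the list), 0.15 for Gabarap, 0.15 for Gabarapl2 and 0.18 for Atg101. The other 2 had lower values, at -0.24 for Ambra1, which encodes a Beclin 1 partner, and -0.23 for Sqstm1. For 36 of the 38 genes the 95% interval lay inside 0.5 in either direction. In TPM with limma-trend, Sqstm1 (-0.30, adjusted p = 0.0772) and Ambra1 (-0.23, adjusted p = 0.0884) did pass, both lower, beside 6.48% of all genes (155 higher and 436 lower).

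Sqstm1 had a lowest, median and highest level of 627, 714 and 792 CPM in the controls, 623, 765 and 1124 CPM in HFD, 623, 657 and 915 CPM in Dose I and 505, 681 and 959 CPM in Dose II. The 3 HFD-fed groups spread more widely than the controls, and the ranges of all 4 groups overlapped. Protein p62 was not measured here, and turnover of p62 by autophagy does not show in its transcript.

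Between the doses, no member passed in edgeR or DESeq2, and none had an unadjusted p under 0.05, beside 2.98% of all genes. No gene of the whole table passed in that comparison (0% of all genes). The log2 fold changes of the members in Dose II vs. Dose I ran from -0.19 to 0.17, and 37 of the 38 intervals lay inside 0.5 in either direction.

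**Figure D3:**
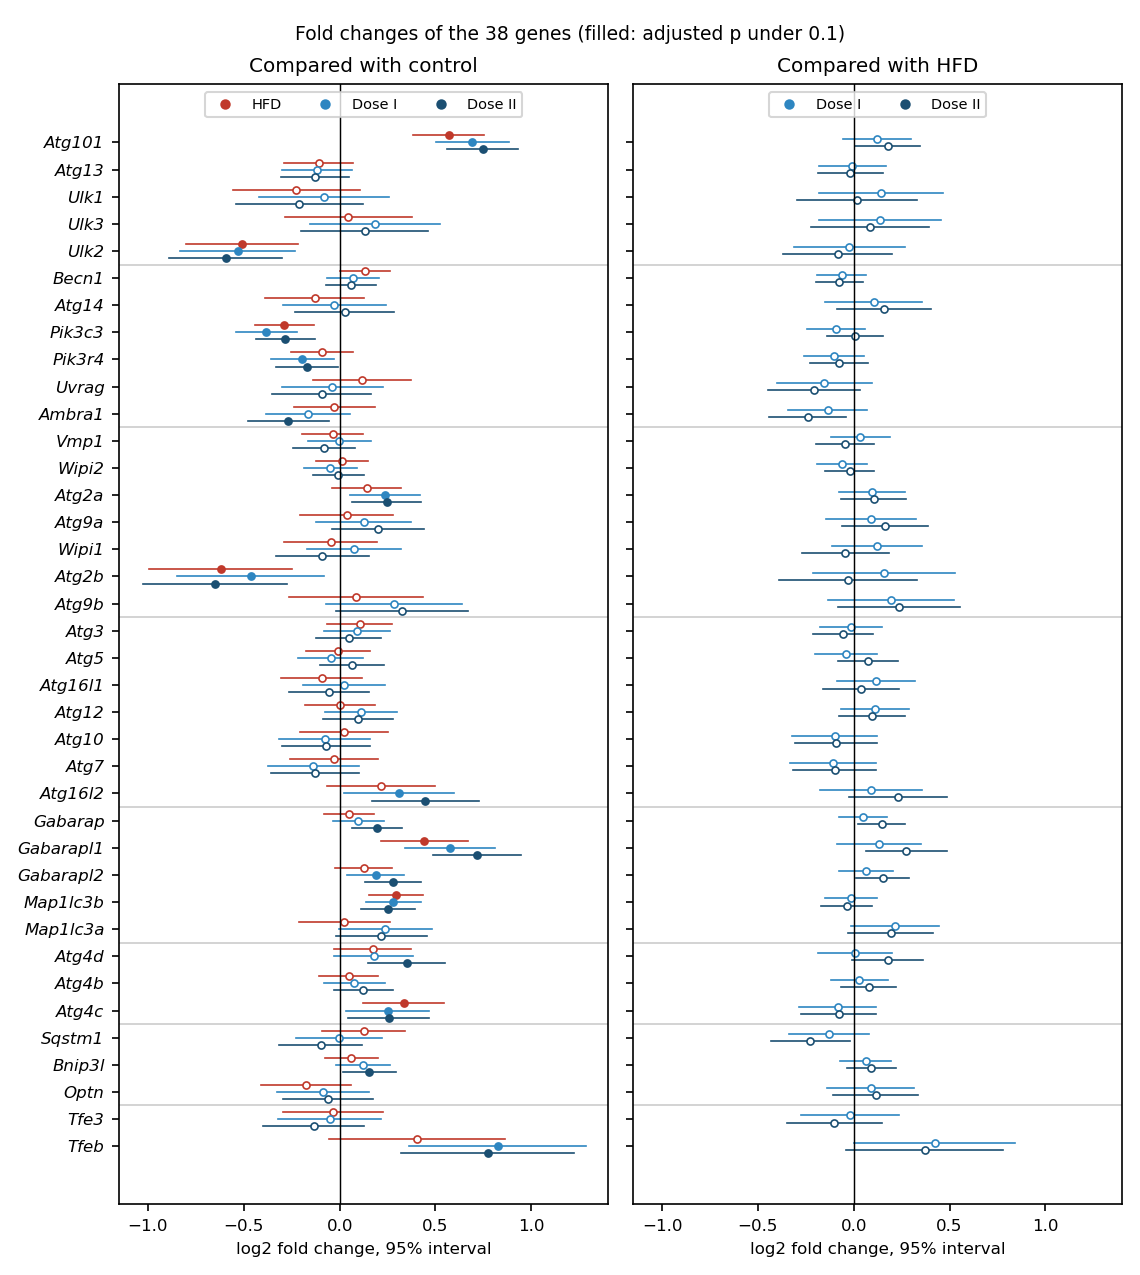
Log2 fold change of each of the 38 genes with its 95% interval, against control (left; HFD, Dose I and Dose II) and against HFD (right; Dose I and Dose II), with genes at an adjusted p under 0.1 as filled points. Filled points occur on the left only, 7 for HFD, 12 for Dose I and 16 for Dose II.

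Both doses were also compared with control. These comparisons share the 8 control livers with each other and with HFD vs. control, so they are not independent of it, and the values are given side by side. In Dose I vs. control 12 members changed, 8 higher and 4 lower, which is 31.6% beside 40.7% of all genes (20.6% higher and 20.1% lower). In Dose II vs. control 16 changed, 11 higher and 5 lower, which is 42.1% beside 47.4% of all genes (23.9% higher and 23.4% lower). In TPM with limma-trend the split of the members was 4 higher and 5 lower at Dose I, where all genes split into 1337 higher and 2427 lower. At Dose II it was 7 higher and 9 lower, where all genes split into 1569 higher and 2760 lower. With control C105 kept in, 5 members changed at Dose I, beside 21.8% of all genes, and 9 at Dose II, beside 32.9%.

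All 7 genes of the HFD comparison passed at both doses as well. The log2 fold changes against control in HFD, Dose I and Dose II were 0.57, 0.69 and 0.75 for Atg101, 0.44, 0.58 and 0.72 for Gabarapl1, 0.29, 0.28 and 0.25 for Map1lc3b and 0.33, 0.25 and 0.26 for Atg4c. They were -0.51, -0.53 and -0.60 for Ulk2, -0.62, -0.46 and -0.65 for Atg2b and -0.29, -0.38 and -0.28 for Pik3c3. Without control C105, no overlap between the libraries was seen for Pik3c3 at Dose I (3.67% of all genes) and for Atg101 at Dose II (4.96% of all genes). The Pik3c3 ranges nearly met, with a highest Dose I level of 36.2 CPM and a lowest control level of 36.3 CPM. Control C105 was at 35.2 CPM for Pik3c3, inside the Dose I range, and at 174 CPM for Atg101, above every Dose II liver. With control C105 kept in, Atg101 did not pass at Dose I (0.31, edgeR adjusted p = 0.271) or Dose II (0.36, edgeR adjusted p = 0.138), and at Dose I neither did Ulk2 (edgeR adjusted p = 0.115) or Atg2b (edgeR adjusted p = 0.214). Atg2b also missed the threshold at Dose I once each library's trend with transcript length was removed (edgeR adjusted p = 0.102), and Atg4c did at both doses in TPM with limma-trend (adjusted p = 0.276 and 0.245). None of the 7 passed in either dose vs. HFD in edgeR.

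Tfeb passed at both doses against control and not in HFD. Its lowest, median and highest levels were 2.79, 4.41 and 6.70 CPM in the controls, 3.54, 5.85 and 9.51 CPM in HFD, 5.17, 7.69 and 11.6 CPM in Dose I and 3.97, 7.63 and 13.4 CPM in Dose II. The medians of the dosed groups were above the highest of the 8 controls, while the ranges of all 4 groups overlapped. Control C105, left out of these values, stood at 12.9 CPM, above the medians of both dosed groups. Against control the log2 fold change was 0.40 in HFD (SE 0.23, edgeR adjusted p = 0.187), 0.82 in Dose I (SE 0.23, edgeR adjusted p = 0.00538) and 0.77 in Dose II (SE 0.22, edgeR adjusted p = 0.00543). Against HFD it was 0.42 at Dose I (SE 0.21, edgeR adjusted p = 0.535) and 0.37 at Dose II (SE 0.20, edgeR adjusted p = 0.326), so a difference between the dosed and the HFD livers was not shown. Tfe3, a factor of the same family, had log2 fold changes of -0.03, -0.05 and -0.14 against control in HFD, Dose I and Dose II.

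Gabarapl2 and Gabarap, further Atg8 genes, passed against control at Dose II. Gabarapl2 had a lowest, median and highest level of 56.3, 61.1 and 77.2 CPM in the controls, 61.4, 68.2 and 83.4 CPM in HFD, 61.8, 68.6 and 83.8 CPM in Dose I and 69.2, 76.4 and 88.6 CPM in Dose II. All 10 Dose II livers were above the control median, and 5 were above every control. The log2 fold change against control was 0.19 at Dose I (SE 0.07, edgeR adjusted p = 0.0484) and 0.28 at Dose II (SE 0.07, edgeR adjusted p = 0.00237). The call at Dose II passed in all 7 other fits. That at Dose I was lost with control C105 kept in (edgeR adjusted p = 0.158), in TPM with limma-trend (adjusted p = 0.348) and with the length trend removed, where it was 0.07 (edgeR adjusted p = 0.438).

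Gabarap, the most abundant member per length, had a lowest, median and highest level of 138.2, 152 and 175 CPM in the controls, 119.2, 165 and 177 CPM in HFD, 149, 168 and 180 CPM in Dose I and 163, 176 and 200 CPM in Dose II. The Dose II range lay in the upper part of the control range and above it. The log2 fold change at Dose II against control was 0.19 (SE 0.06, edgeR adjusted p = 0.0150), and it was -0.10 (edgeR adjusted p = 0.217) once each library's trend with transcript length was removed, so the direction depends on that step. It did not pass with control C105 kept in (edgeR adjusted p = 0.161) or in TPM with limma-trend (adjusted p = 0.368).

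The remaining calls against control were at most 0.45 in size on the log2 scale. Atg2a had a log2 fold change of 0.24 at both doses (edgeR adjusted p = 0.0417 and 0.0255), and Atg16l2 had 0.31 at Dose I (edgeR adjusted p = 0.0921) and 0.45 at Dose II (edgeR adjusted p = 0.00883). Pik3r4, which encodes the scaffold VPS15 of the lipid kinase complex, fell by 0.19 at Dose I (edgeR adjusted p = 0.0665) and by 0.17 at Dose II (edgeR adjusted p = 0.0910), calls that 3 and 2 of the 7 other fits kept. The call of Atg16l2 at Dose I was kept by 3 of the 7, and those of Atg2a at Dose I and Dose II by 5 and 6. With control C105 kept in, Atg16l2 had an edgeR adjusted p of 0.101 at Dose II. Passing at Dose II only were Atg4d (0.35, edgeR adjusted p = 0.00474), Ambra1 (-0.27, edgeR adjusted p = 0.0388) and Bnip3l (0.15, edgeR adjusted p = 0.0652, but -0.07 in TPM with limma-trend). With control C105 kept in, none of these 3 passed, with edgeR adjusted p = 0.201 for Atg4d and 0.424 for Ambra1, and Ambra1 did not pass with the length trend removed (edgeR adjusted p = 0.192). For these 3 the difference between the doses did not pass in edgeR.

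Transcript length moved with the diet comparison and is given beside it. Relative length was the ratio of a gene's estimated counts to its TPM, scaled so that the median gene is 1. Per library, Spearman's rho between length and the log2 level relative to the mean over libraries ran from 0.121 to 0.344 in the controls, from -0.203 to 0.176 in HFD, from -0.264 to 0.134 in Dose I and from -0.283 to 0.113 in Dose II. Control C105, left out of these ranges, was at -0.356, lower than any other library of any group. The 4 members that rose in HFD had a median relative length of 0.824, the 3 that fell had 1.65 and the 31 others had 1.11. Across the 38 genes, Spearman's rho between length and the log2 fold change in HFD vs. control was -0.26, and it was -0.26 across all genes, where the genes come from the same libraries. With the trend removed, 9 members passed (5 higher and 4 lower), beside 31.6% of all genes (1418 higher and 1457 lower). These included all 7 above together with Atg2a (0.30) and Gabarap (-0.15).

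**Figure D4:**
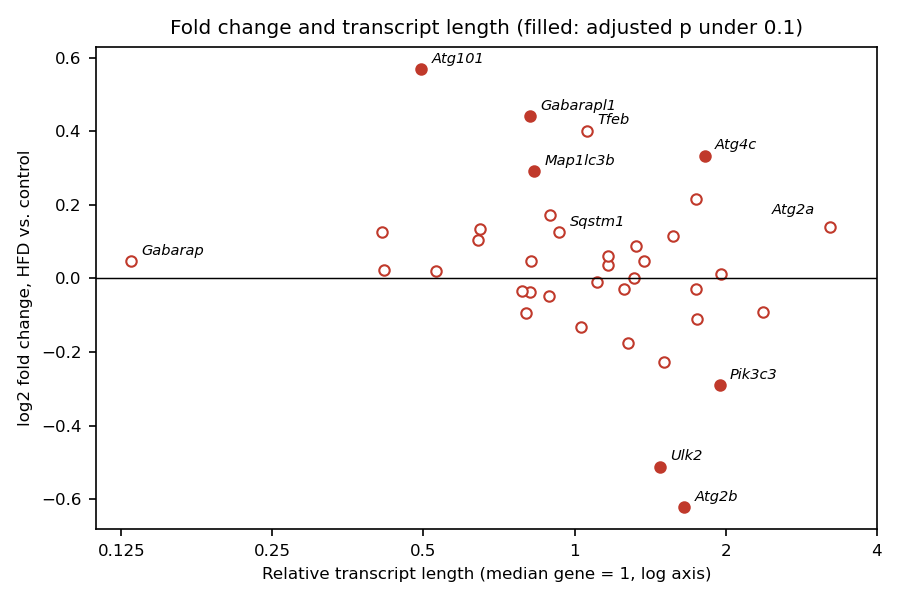
Log2 fold change in HFD vs. control of the 38 genes against relative transcript length (log axis, median gene at 1), with filled points at an adjusted p under 0.1. The 3 filled points below 0 lie right of the median gene and 3 of the 4 above 0 lie left of it, with Atg4c on the right.

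Genes around the machinery were counted from lists of known function, chosen after earlier results of these data were known. The study had also reported lysosome among the pathways enriched in genes that rose with the HFD. Among the lists, the largest share that passed in HFD vs. control was in 29 lysosomal protein genes known as targets of TFEB. Of these, 18 rose and 3 fell (median log2 fold change 0.28), which is 72.4% beside 36.2% of all genes. With control C105 kept in, 14 rose and 1 fell, beside 15.6% of all genes. Hexa, an enzyme that breaks down gangliosides, had a lowest, median and highest level of 7.78, 11.5 and 14.0 CPM in the controls and 18.8, 25 and 55.7 CPM in HFD, with no overlap (1.8% of all genes). Its log2 fold change was 1.38 (SE 0.17, edgeR adjusted p = 8.22e-07). Cd63, a lysosomal membrane protein, rose by 0.82 (SE 0.11, edgeR adjusted p = 1.78e-06) and Ctsa, the protease cathepsin A, by 0.62 (SE 0.10, edgeR adjusted p = 4.85e-05).

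None of these 29 genes passed in either dose vs. HFD in the edgeR fit of 4 groups, beside 0.187% of all genes at Dose I and 5.63% at Dose II. In Dose II vs. HFD 1 was lower in the fit of the compared groups only and 2 were lower in TPM with limma-trend. Markers of Kupffer cells, the macrophages of the liver, also moved with the HFD: 7 of the 13 tested rose and none fell. That is 53.8%, beside 36.2% of all genes. With control C105 kept in, 3 rose, beside 15.6% of all genes. The summed level of the 13 markers ran from 240.5 to 328 CPM in the controls, from 324 to 519.7 CPM in HFD, from 251 to 484 CPM in Dose I and from 238 to 439 CPM in Dose II, with no marker at 0 in all libraries of a group. At Dose II vs. HFD 6 of the 13 fell and 1 rose, which is 53.8% beside 5.63% of all genes. With control C105 kept in, 2 fell and 1 rose, beside 2.7% of all genes. Of the 8 hepatocyte markers, 4 fell and 1 rose in HFD vs. control (62.5%, beside 36.2% of all genes). With control C105 kept in, 2 fell and none rose, beside 15.6% of all genes. Alb, the main plasma protein made by the liver, fell by 0.48 (SE 0.09, edgeR adjusted p = 0.000240). Ttr, the 1 hepatocyte marker that rose, was higher by 0.32 (SE 0.06, edgeR adjusted p = 0.000458). The part of macrophages or hepatocytes in the lysosomal or the Atg8 values was not tested, and in whole liver a change in the number of cells of a type and a change in RNA per cell cannot be told apart.

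For fusion of autophagosomes with lysosomes, 2 of 15 genes rose and 6 fell in HFD vs. control. That is 53.3%, beside 36.2% of all genes. With control C105 kept in, none rose and 1 fell, beside 15.6% of all genes. Vps41, a subunit of the HOPS tether, fell by 0.60 on the log2 scale (SE 0.14, edgeR adjusted p = 0.00173), with a median of 36.5 CPM in control and 22.0 CPM in HFD. Vamp8, the lysosomal fusion protein, was higher by 0.31 (SE 0.07, edgeR adjusted p = 0.000923), and by 0.06 (edgeR adjusted p = 0.815) with control C105, at 403 CPM, kept in.

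Of 25 genes in nutrient sensing by mTORC1 and AMPK, 7 rose and 5 fell in HFD vs. control (2 and 1 with control C105 kept in). That is 48%, beside 36.2% of all genes (15.6% of all genes with control C105 kept in). Lamtor2, part of the scaffold of mTORC1 at the lysosome, was higher by 0.34 (SE 0.08, edgeR adjusted p = 0.00120), and by 0.10 (edgeR adjusted p = 0.678) with control C105 kept in. Rragc, a GTPase that brings mTORC1 to the lysosome, was higher by 0.37 (SE 0.08, edgeR adjusted p = 0.00121). Mtor, the kinase itself, fell by 0.27 (SE 0.06, edgeR adjusted p = 0.00168), and by 0.08 (edgeR adjusted p = 0.397) once the length trend was removed.

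Among 13 transcription factors known to act on autophagy genes, 1 rose and 5 fell in HFD vs. control (1 and 2 with control C105 kept in). That is 46.2%, beside 36.2% of all genes (15.6% of all genes with control C105 kept in). Ppara, the fasting regulator of fatty acid oxidation, had medians of 94.0 CPM in control and 43.9 CPM in HFD and fell by 1.05 on the log2 scale (SE 0.22, edgeR adjusted p = 0.000699). Nr1h4, the bile acid receptor FXR, fell by 0.42 (SE 0.14, edgeR adjusted p = 0.0195), and Nfe2l2, which encodes NRF2 and responds to oxidants, was higher by 0.45 (SE 0.13, edgeR adjusted p = 0.00847). At both doses vs. HFD no gene of the fusion or transcription factor lists passed in the fits run. No nutrient sensing gene passed in the edgeR fit of 4 groups, but in Dose II vs. HFD 1 was lower in the fit of the compared groups only, 1 was lower in TPM with limma-trend, and 1 was higher and 1 lower in DESeq2.

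In the list for breakdown of lipid droplets, 1 of 14 genes rose and 5 fell in HFD vs. control (42.9%, beside 36.2% of all genes). With control C105 kept in, 1 rose and 1 fell, beside 15.6% of all genes. In Dose II vs. HFD 4 fell and none rose (28.6%, beside 5.63% of all genes). There, 1 fell with control C105 kept in (2.7% of all genes) and 2 with no filter on low counts (2.98% of all genes). Pnpla3, a droplet lipase, had medians of 296 CPM in control, 110 CPM in HFD, 79.2 CPM in Dose I and 29.3 CPM in Dose II. It fell by 1.49 in Dose II vs. HFD (SE 0.36, edgeR adjusted p = 0.0158). In HFD vs. control, Pnpla8, a phospholipase, fell by 0.45 (SE 0.11, edgeR adjusted p = 0.00177) and Mgll, which cleaves monoglycerides, fell by 0.53 (SE 0.14, edgeR adjusted p = 0.00397). With control C105 kept in, neither passed (edgeR adjusted p = 0.121 and 0.185). Plin3, a droplet coat protein, was the 1 gene that rose, by 1.51 (SE 0.43, edgeR adjusted p = 0.00794).

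Of 13 further receptors for mitochondria and endoplasmic reticulum, 1 rose and 2 fell in HFD vs. control (23.1%, beside 36.2% of all genes). With control C105 kept in, none rose and 2 fell, beside 15.6% of all genes. At each dose vs. HFD 1, Retreg1, was higher in the edgeR fit of 4 groups (7.69%), beside 0.187% of all genes at Dose I and 5.63% at Dose II. In DESeq2, 2 of the 13 were higher in Dose II vs. HFD, beside 7.14% of all genes. The second was Nipsnap1 (0.26, DESeq2 adjusted p = 0.0989). Retreg1, which encodes the ER-phagy receptor FAM134B, had a lowest, median and highest level of 12.2, 21.6 and 39.6 CPM in the controls, 5.21, 14.3 and 25.1 CPM in HFD, 11.8, 27.9 and 144 CPM in Dose I and 19.0, 41.4 and 61.3 CPM in Dose II. Most Dose II livers were above the highest HFD liver, and the ranges overlapped at their ends. The log2 fold change in Dose II vs. HFD was 1.38 (SE 0.33, edgeR adjusted p = 0.0144), and it passed in every setting run.

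In Dose I vs. HFD the log2 fold change of Retreg1 was 1.49 (SE 0.34, edgeR adjusted p = 0.0740). It rested on Dose I library DI127, at 144 CPM, without which it was 0.99 (SE 0.28, edgeR adjusted p = 0.269). With all libraries of Dose I it also missed the threshold with control C105 kept in (edgeR adjusted p = 0.120), in TPM with limma-trend (adjusted p = 0.150) and in the fit of the compared groups only (edgeR adjusted p = 0.187). In HFD vs. control its log2 fold change was -0.61 (SE 0.36, edgeR adjusted p = 0.199). Both dose comparisons share the 10 HFD livers.

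**Figure D5:**
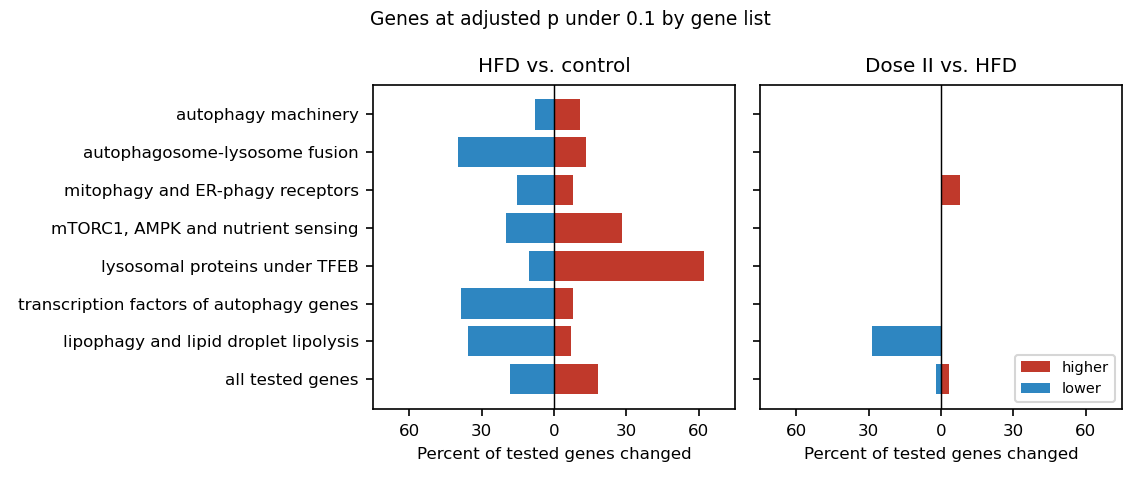
Percent of tested genes in each list at an adjusted p under 0.1, higher to the right and lower to the left, in HFD vs. control and in Dose II vs. HFD, with all tested genes at the bottom. The machinery stands at 18.4% in HFD vs. control beside 36.2% of all genes and has no bar in Dose II vs. HFD, where all genes stand at 5.63%.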

How the data were processed

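Liver RNA was sequenced in 38 libraries. Per the study's methods, reads were assigned with kallisto to the hamster genome MesAur1.0. The authors deposited 2 tables, of estimated counts and of TPM, for 14631 gene symbols. The deposited estimated counts were rounded, filtered with filterByExpr, scaled by TMM and fitted in edgeR 4.0.16 under R 4.3.3 with a quasi-likelihood F test, in 1 fit of 4 groups and 37 libraries, without control C105, at an adjusted p under 0.1. The study's methods drop 1 control without naming it, and control C105 was chosen for its distance from its group. Without it, DESeq2 passed 3317 genes in HFD vs. control, 80 in Dose I vs. HFD and 641 in Dose II vs. HFD. The study reports the same counts for these comparisons. SEs are the log2 fold change over the square root of F, and 95% intervals come from the t distribution. CPM values are TMM-scaled. The deposited TPM values were used for levels between genes and for limma-trend 3.58.1 on log2(TPM + 1), on genes at 1 TPM or more in 5 libraries. DESeq2 1.42.0, RLE scaling, no filter, removal of each library's length trend (lowess span 0.3), fits of the compared groups only, all 38 libraries and a threshold of 0.05 were the other alternatives. Leaving out Dose I library DI127 was chosen after seeing the data.

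The genes, lists and rule were chosen with earlier results of these data known. Named members were those that passed in any of 6 comparisons and the highest per length of each role. For the other lists, the genes named were among the 3 with the smallest adjusted p of those that passed in a comparison. The edgeR fit was tested on simulated counts of HFD vs. control, with 200 of 9099 genes changed. It recovered 96% of changes of 1 on the log2 scale and 52% of changes of 0.5. False calls were 8.64% of the calls made. In the data 36.2% of genes passed in HFD vs. control, a larger share than was changed in the simulation. Recovery at that share was not tested. No pair of libraries of a group agreed within sampling noise (chi-square per gene of at least 6.71). Near-identical genes may share reads, and 37 of the 38 symbols matched RefSeq names of another assembly, from which no coordinates were taken.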

Additional observations from a re-analysis of the deposited data

Results flagged for a closer look

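In 9 of 164 groups tested, 1 library lay far from the rest of its group for a named gene, by Dixon's test on the log2 scale. Chance flags about 1 in 20 groups, so a number of this size carries no pattern by itself. Among the autophagy genes, Gabarap was at 119.2 CPM in HFD library H113, below the other HFD livers at 152 to 177 CPM. Gabarapl1 was at 344 CPM in control C106, above the other controls at 189 to 246 CPM. Pik3r4 was at 19.9 CPM in control C102, below the other controls at 24.3 to 28.9 CPM, and at 19.4 CPM in HFD library H118, below the other HFD livers at 23.1 to 27.7 CPM.

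Among the surrounding genes, Cd63 was at 185 CPM in Dose II library DII131, above the others at 101.8 to 131.2 CPM. Ctsa was at 794 CPM in HFD library H118, above the others at 431 to 590 CPM. Hexa was at 36.7 CPM in Dose I library DI122, above the others at 20.4 to 26.9 CPM. Lamtor2, a scaffold of mTORC1 at the lysosome, was at 55.1 CPM in HFD library H110, above the others at 41.02 to 47.1 CPM. Mtor was at 40.7 CPM in Dose II library DII135, below the others at 45.1 to 48.9 CPM.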

How the results depend on the processing

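Of the 7 members that passed in HFD vs. control, 5 passed in all 7 other fits (Gabarapl1, Map1lc3b, Atg4c, Atg2b and Pik3c3), as did 4 of 12 in Dose I vs. control and 7 of 16 in Dose II vs. control. Members that passed numbered 2 in Dose II vs. HFD with limma-trend on TPM (both lower, beside 6.48% of all genes), 5 in Dose I vs. control over all 38 libraries and 9 in Dose II vs. control over all 38 libraries. With the length trend removed, Gabarap turned to -0.15 in HFD, -0.15 at Dose I and -0.10 at Dose II against control, and Epg5 turned to 0.0059 in HFD vs. control. With limma-trend on TPM, Becn1 turned to -0.21 and Bnip3l to -0.072 in Dose II vs. control. Over all genes, 3296 passed in HFD vs. control and 1409 with control C105 kept in, 4310 and 2980 passed in Dose II vs. control, 3704 and 1972 in Dose I vs. control, and 512 and 244 in Dose II vs. HFD. In Dose I vs. HFD 17 passed, against 80 in DESeq2 and 5 to 23 in the other fits. The causes of these shifts were not tested. At this depth and group size, differences between the doses and HFD within the 95% intervals may not be detectable. No paired analysis was possible because every library has a number of its own in the labels and no number is shared between groups.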
